A study of Mus musculus with 6 samples.

Results

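Keratins are the intermediate filament proteins of epithelial cells, and 52 keratin genes were measured here among 19938 genes in whole lung buds of E11.5 mouse embryos. The members are the genes whose symbol on the platform annotation is Krt followed by a number and at most 1 letter, so that keratin-associated proteins (Krtap) and Krtcap genes are left out. Each of the 52 had exactly 1 probe set (called a probe below) that named no other gene. Lung buds carrying the Shhcre allele alone (3 control arrays) were compared with buds carrying Shhcre and homozygous floxed alleles of Hdac1 and Hdac2 (3 arrays, called DKO), with the strains given as C57BL/6, 129X1 and 129S1. Shhcre is expressed from the Sonic hedgehog locus, so both groups carry Cre, and recombination is directed at the epithelium while mesenchyme, mesothelium, vessels and blood of the bud were measured along with it. The titles call the replicates biological, but no label tells single embryos from pools of embryos, so the p-values rest on the scatter among these 6 samples, which may be partly technical. The comparison asks which genes depend on Hdac1 and Hdac2, histone deacetylases that act in repressor complexes, in the developing lung.

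Keratin filaments are built from obligate pairs of 1 type I (acidic) and 1 type II (basic) protein, and the pair a cell makes follows its kind of epithelium. Krt8 (type II) with Krt18 (type I) is the primary pair of single-layered, or simple, epithelia, including the embryonic lung and the mesothelium. Krt7 (type II), Krt19 and Krt20 (both type I) are the other simple epithelial keratins, Krt7 and Krt19 being common in ducts and airways and Krt20 in gut. Krt5 with Krt14 marks basal cells of stratified epithelium and of the mature airway. Most remaining members serve the suprabasal epidermis and other stratified epithelia, the root sheath of the hair follicle, or the hair shaft. The other 7 were put in a class of broad or unsettled keratins.

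The simple epithelial pair and its relative Krt7 fell in the DKO buds, and no keratin was called higher. Krt18, Krt7 and Krt8 were 1.81-fold, 1.52-fold and 1.47-fold lower, and Krt19 and Krt20, which complete the simple epithelial class, did not pass the threshold, an adjusted p under 0.05 over all 19938 genes in limma. Of 52 keratins, 3 were called lower and 0 higher, against 1.38% of all genes called lower and 1.03% called higher (2.41% in either direction). All 3 belong to the 5 simple epithelial keratins, and among the other 47 limma called 0, with 1 at an unadjusted p under 0.05, a level reached by 12.8% of all genes. The median log2 change was -0.56 over the 5 simple epithelial keratins, 0.01 over the other 47 and 0.00 over all genes. Since whole buds were measured, fewer epithelial cells and less keratin RNA per cell cannot be told apart.

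**Figure D1:**
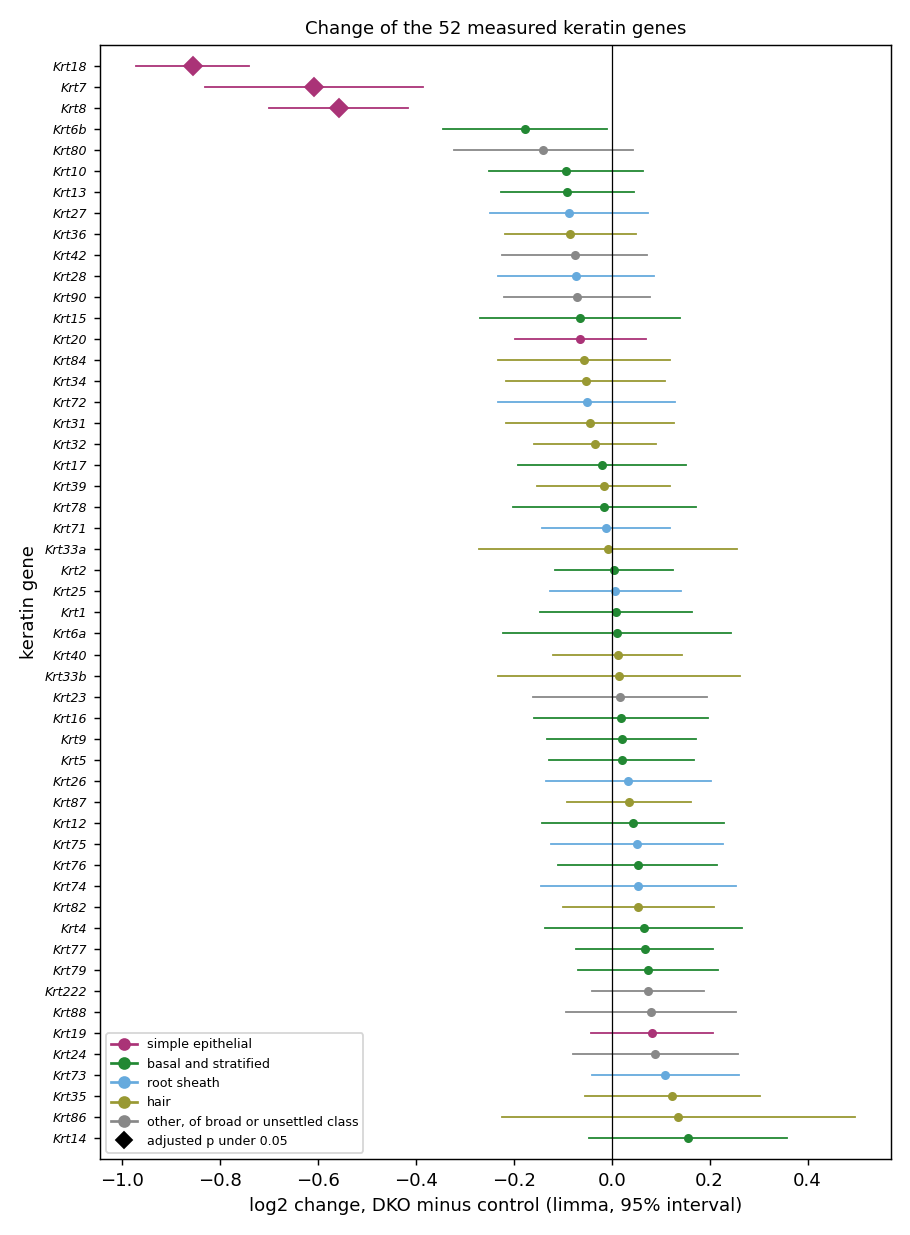
Log2 change (DKO minus control) of each of the 52 keratin genes from limma, with its 95% confidence interval, coloured by the epithelium the keratin is known from; diamonds mark an adjusted p under 0.05. Krt18, Krt7 and Krt8 stand at -0.86, -0.61 and -0.56, and the other 49 genes lie between -0.18 and 0.16.

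The 250 bases before the RefSeq transcription start of the 3 keratins that fell are shown, with those of Krt20, a simple epithelial keratin that was not called, for comparison. They come from a RefSeq table of assembly GRCm38.p6, in which 36 of the 52 keratins were matched and Krt19 was not. Capitals mark TATA-like runs (TATAAN), GC boxes (GGGCGG) and the E-box CACCTG on either strand. Krt18 is at chr15:102027966-102028215 (plus strand), Krt8 at chr15:102004343-102004592 (minus strand), Krt7 at chr15:101412153-101412402 (plus strand) and Krt20 at chr11:99438154-99438403 (minus strand).
Krt18: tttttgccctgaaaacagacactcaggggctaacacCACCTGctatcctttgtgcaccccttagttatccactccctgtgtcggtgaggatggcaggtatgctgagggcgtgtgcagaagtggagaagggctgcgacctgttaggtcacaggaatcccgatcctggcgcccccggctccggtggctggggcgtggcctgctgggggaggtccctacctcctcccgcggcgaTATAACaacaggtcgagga
Krt8: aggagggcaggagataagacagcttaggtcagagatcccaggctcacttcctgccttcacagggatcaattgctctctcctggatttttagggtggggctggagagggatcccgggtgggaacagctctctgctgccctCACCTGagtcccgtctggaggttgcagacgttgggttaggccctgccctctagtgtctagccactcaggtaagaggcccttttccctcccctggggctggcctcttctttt
Krt7: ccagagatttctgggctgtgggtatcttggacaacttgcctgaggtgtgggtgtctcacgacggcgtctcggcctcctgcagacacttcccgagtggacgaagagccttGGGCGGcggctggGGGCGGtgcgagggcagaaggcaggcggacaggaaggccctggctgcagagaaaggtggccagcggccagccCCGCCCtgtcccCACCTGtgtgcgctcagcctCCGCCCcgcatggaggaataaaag
Krt20: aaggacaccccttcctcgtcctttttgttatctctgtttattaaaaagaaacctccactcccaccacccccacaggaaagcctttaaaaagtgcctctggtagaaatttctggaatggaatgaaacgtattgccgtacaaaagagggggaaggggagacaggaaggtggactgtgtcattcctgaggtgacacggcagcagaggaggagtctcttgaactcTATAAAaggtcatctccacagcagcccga
The promoters of Krt18, Krt8 and Krt7 each held 1 CACCTG, beginning 214, 111 and 44 bases before the start. The Krt20 window held none, but its probe was dim and it is the only uncalled keratin shown. CACCTG was present in 41.7% of the 36 keratin windows and in 20.2% of all 32851 promoter windows, searched over 300 bases that include 50 after the start. Krt18 and Krt20 held a TATA-like run 19 and 29 bases before the start, and in Krt8 a TATA-like run spanned the annotated start itself and is not capitalised. Such runs were found in 72.2% of the keratin windows and 24.8% of all windows. Krt7 held 4 GC boxes and no TATA-like run, and only 2 of the 36 keratin windows held a GC box, against 35.7% of all windows. The forkhead motif TGTTTAC and the grainyhead motif AACCNGTT were found in 0 of the 36 keratin windows, against 3.65% and 2.09% of all windows. The AP-1 motif TGANTCA was found in 1 keratin window, against 7.81% of all windows. These are matches of letters and say nothing of whether a factor binds.

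Krt18, the type I partner of the primary simple pair, showed the largest fall of the family. Its log2 level was 10.55, 10.62 and 10.57 in controls 1 to 3 and 9.69, 9.71 and 9.77 in DKO 1 to 3 (probe 10427075). All 3 DKO arrays lay below all 3 controls, and the gap between the groups was far wider than the scatter within either, with SDs of 0.04 in each. The log2 change was -0.86 (SE 0.05, interval -0.97 to -0.74, n = 3 per group, adjusted p = 0.000135 in limma), which ranks as fall 28 of the 19938 genes.

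Krt8, the type II partner that pairs with Krt18, fell as well. Its log2 level was 10.81, 10.90 and 10.82 in the controls and 10.18, 10.29 and 10.38 in the DKO arrays (probe 10432918). The groups did not overlap, and the DKO arrays were spread more widely (SD 0.10) than the controls (SD 0.05). The change was -0.56 (SE 0.06, interval -0.70 to -0.42, adjusted p = 0.00269). The log2 ratio of the Krt8 probe to the Krt18 probe, a pair compared after its values were seen, was 0.27, 0.28 and 0.24 in the controls and 0.49, 0.58 and 0.61 in the DKO arrays, a shift of 0.30. The groups did not overlap, and the exact permutation test over arrays gave p = 0.1, the smallest that 3 arrays against 3 allow (0.143 after Benjamini-Hochberg adjustment over the 10 pairs of simple keratins). That test cannot reach 0.05 with 3 arrays against 3, so it cannot decide whether the partners fell by different amounts.

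Krt7, the other type II simple keratin, fell by a similar amount with a wider error. Its log2 level was 9.90, 10.12 and 10.26 in the controls and 9.36, 9.48 and 9.63 in the DKO arrays (probe 10427052). The groups did not overlap, but the controls were spread more widely (SD 0.18) than those of Krt18 or Krt8. The change was -0.61 (SE 0.10, interval -0.83 to -0.38, adjusted p = 0.0145). The call was lost without control 2 (adjusted p = 0.0792) or control 3 (0.0593), at changes of -0.59 and -0.53, whereas Krt18 and Krt8 kept theirs whichever array was left out. The ratio of Krt7 to Krt8 shifted by -0.05 (exact permutation p = 0.8, and 0.8 after adjustment).

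Krt19, the type I simple keratin that lacks most of the tail domain, did not fall with them. Its log2 level was 8.38, 8.48 and 8.48 in the controls and 8.58, 8.52 and 8.48 in the DKO arrays (probe 10391036), and the groups overlapped. The change was 0.08 (SE 0.05, interval -0.04 to 0.21, adjusted p = 0.628), so its interval leaves out a fall of the size seen in Krt18, Krt7 or Krt8. The log2 ratio of Krt18 to Krt19 was 2.17, 2.14 and 2.10 in the controls and 1.12, 1.18 and 1.30 in the DKO arrays. It fell by 0.94, with no overlap (exact permutation p = 0.1, the smallest possible; adjusted 0.143). The ratios of Krt8 and Krt7 to Krt19 fell by 0.64 and 0.69, also with no overlap and p = 0.1 in the exact test. These pairs too were compared after their values were seen. Their shifts restate the changes of the single genes and add no separate support.

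Krt20, the gut keratin, gave a dim signal with little difference between groups. Its log2 level was 6.12, 6.15 and 6.13 in the controls and 6.01, 6.18 and 6.02 in the DKO arrays. DKO 2 lay above the controls and the other DKO arrays below them. The change was -0.06 (SE 0.06, interval -0.20 to 0.07, adjusted p = 0.764).

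**Figure D2:**
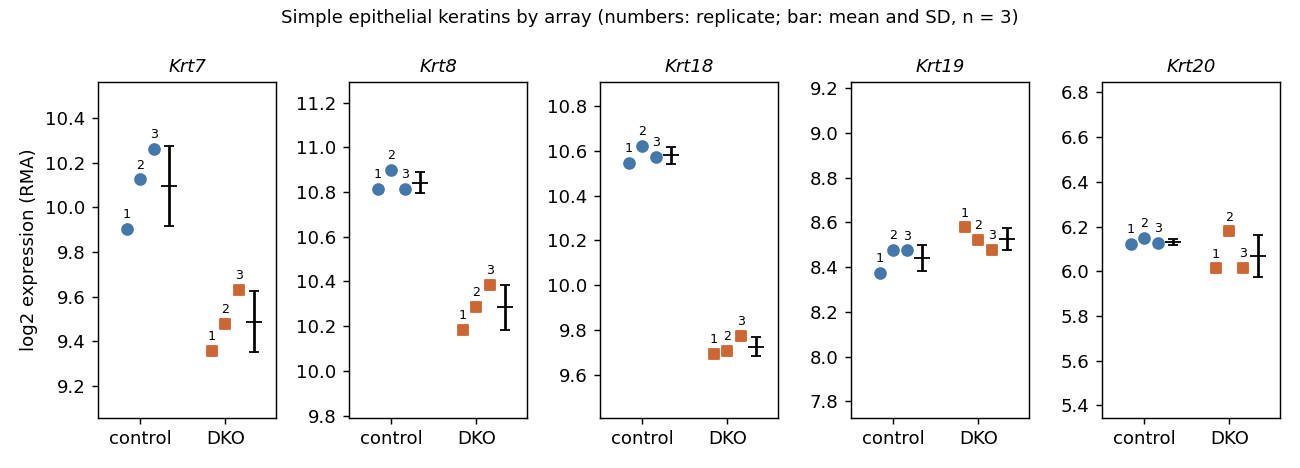
Log2 expression of the 5 simple epithelial keratins on each array, with the mean and SD (n = 3) beside each group; each panel has its own range of the same height (1.5 log2 units). The DKO arrays lie below all controls for Krt7, Krt8 and Krt18, and the groups overlap for Krt19 and Krt20.

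The keratins of stratified epithelium showed no called change. Of 18 measured, limma called 0 in either direction, against 2.41% of all genes, and a count of 0 among 18 is near that share. An unadjusted p under 0.05 was reached by 1, against 12.8% of all genes. The median log2 change was 0.02, with a range from -0.18 to 0.16. The basal cell pair Krt5 and Krt14 stood at 0.02 (SE 0.07, interval -0.13 to 0.17) and 0.16 (SE 0.09, interval -0.05 to 0.36), with adjusted p = 0.947 and 0.547. Krt14 was the most raised value of the whole family. Its levels were 7.51, 7.47 and 7.26 in the controls and 7.40, 7.66 and 7.65 in the DKO arrays, which overlap. Krt15, a further basal keratin, stood at -0.06 (SE 0.09) and Krt17, a keratin of appendages and injured epidermis, at -0.02 (SE 0.08). The epidermal keratins Krt1 and Krt10 of the differentiated layers stood at 0.01 (SE 0.07) and -0.09 (SE 0.07), and Krt4 and Krt13, the pair of internal stratified epithelia such as the oesophagus, at 0.07 (SE 0.09) and -0.09 (SE 0.06).

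Krt6b, an inducible keratin of the follicle and injured epidermis, was the member nearest to the threshold among those not called. Its levels were 4.96, 5.09 and 4.88 in the controls and 4.90, 4.81 and 4.69 in the DKO arrays, and 1 DKO value lay within the control range. The change was -0.18 (SE 0.07, interval -0.34 to -0.01, unadjusted p = 0.0400, adjusted p = 0.353). It was called with array weights (-0.25, adjusted p = 0.0289), a setting that called 2003 genes in all. Its close relative Krt6a stood at 0.01 (SE 0.10), and signal from one such similar gene on the other's probe cannot be told apart here. On the called side of the threshold the nearest member was Krt7 (adjusted p = 0.0145).

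The keratins of the hair follicle were likewise not called. For 9 root sheath keratins the changes ran from -0.09 to 0.11 with a median of 0.01. For 13 hair shaft keratins they ran from -0.08 to 0.14 with a median of -0.01. Limma called 0 of either, against 2.41% of all genes, which is near that share for lists this short. An unadjusted p under 0.05 was reached by 0, against 12.8% of all genes. Krt73 of the root sheath (0.11, SE 0.07) and Krt35 (0.12, SE 0.08) and Krt86 (0.14, SE 0.16) of the hair shaft had the largest positive values, and Krt27 of the root sheath the lowest (-0.09, SE 0.07). Krt86 varied most between arrays, at 6.06, 5.55 and 5.95 in the controls and 5.78, 6.32 and 5.87 in the DKO arrays. The groups overlapped widely. Of 7 keratins of broad or unsettled class, 0 were called, against the same 2.41% of all genes. Among them Krt80 stood at -0.14 (SE 0.08), Krt23 at 0.02 (SE 0.08) and Krt24 at 0.09 (SE 0.07). Counting Krt23 and Krt80 with the simple epithelial keratins brings the median of that class from -0.56 to -0.14. Krt222 was the 1 keratin with all DKO values above all controls, at 6.44 to 6.51 against 6.53 to 6.60 (controls first; change 0.08, SE 0.05, adjusted p = 0.634), against 8.36% of all genes. The 3 called keratins were the only ones with all DKO values below, against 10.4% of all genes.

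Most of these probes were dim, which bears on what the arrays could show. Of the 52 keratin probes, 46 had a mean over the 6 arrays below the median gene's and 25 in the dimmest 30%. Of genes below that median 1.82% were called, against 3.01% above it. The 6 keratins above it were Krt7, Krt8, Krt18, Krt19, Krt33b and Krt87. Probe brightness also depends on the probe's own sequence, so it does not rank the genes by expression. The 95% intervals bound the change in probe signal only. For all 49 keratins not called the interval lay within a 1.5-fold change either way, and for 46 of them within a 1.25-fold change. Whether the signal of a dim probe follows the gene's RNA was not tested, so these are not bounds on the RNA.

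The uncalled keratins differed between the DKO arrays in a common direction. DKO 2 was the highest of the 3 DKO arrays for 38 of the 49 and the highest of all 6 arrays for 28. Its values lay on average 0.11 above each gene's mean, while those of DKO 1 lay 0.07 below (a mean deviation of -0.07) and the controls between -0.02 and 0.01. Over all genes dimmer than the median gene the same deviations were 0.07 in DKO 2 and -0.05 in DKO 1. Over all genes they were 0.03 and -0.03, so the direction is not particular to keratins. The counts of highest arrays were not taken over other genes. The part of this general array difference in the keratin values was not tested. The median SD within the DKO group was 0.12 for the other 47 keratins and 0.08 for all genes, against 0.08 and 0.06 within the controls. Without DKO 2 the median change of the other 47 keratins moved from 0.01 to -0.05 and the 3 calls stood, with Krt18 at adjusted p = 9.73e-05.

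**Figure D3:**
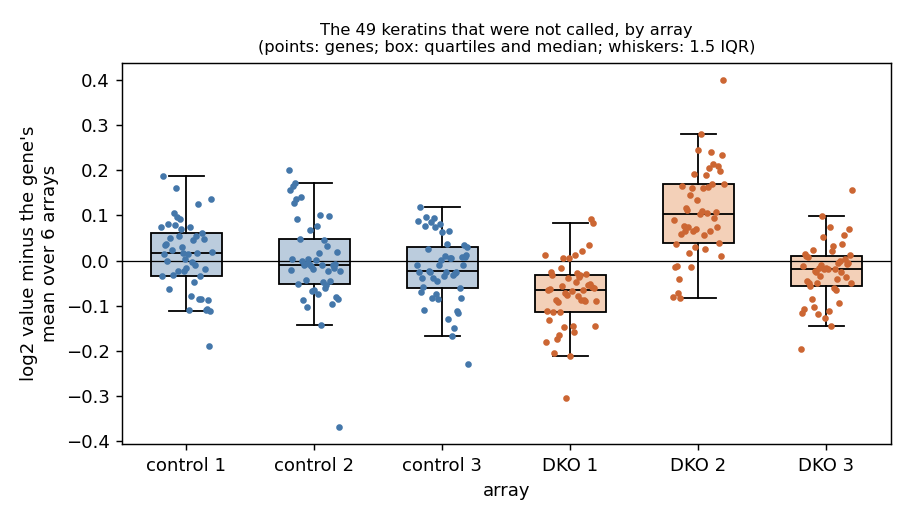
Log2 value of each of the 49 uncalled keratins on each array, minus that gene's mean over the 6 arrays; boxes give the quartiles and median, and whiskers reach 1.5 interquartile ranges. The points of DKO 2 lie mostly above 0 (mean 0.11) and those of DKO 1 mostly below (mean -0.07), with the other arrays centred near 0.

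Nearly all keratin genes lie in 2 blocks of the genome, and the 3 that fell sit at or next to the 2 ends of the type II block. In the RefSeq gene order (assembly GRCm38.p6, protein-coding genes measured here), the block that is mostly type II runs from Krt80 and Krt7 to Krt8 and Krt18 and holds 24 measured keratins. Krt18, a type I gene, lies beside Krt8 at its end, apart from the other type I genes. Between Krt7 and Krt8 lie 20 measured keratins, with changes from -0.18 for Krt6b to 0.14 for Krt86. Limma called 0 of the 20, against 2.41% of all genes and 1.82% of genes dimmer than the median gene. A count of 0 among 20 is near those shares. Krt80, next to Krt7 on the outer side, stood at -0.14 and Krt87 on the inner side at 0.03. Beyond Krt18 the next measured genes, the translation factor gene Eif4b (-0.03, SE 0.05) and the tensin gene Tns2 (0.05, SE 0.05), were not called, and neither was Krt78 on the other side of Krt8 (-0.01, SE 0.08). The type I block holds 27 measured keratins, among them Krt19 between Krt15 and Krt9. Limma called 0 of the 27, which is also near the share over all genes (2.41%). Krt74, the remaining member, is not listed as protein-coding and was not placed.

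**Figure D4:**
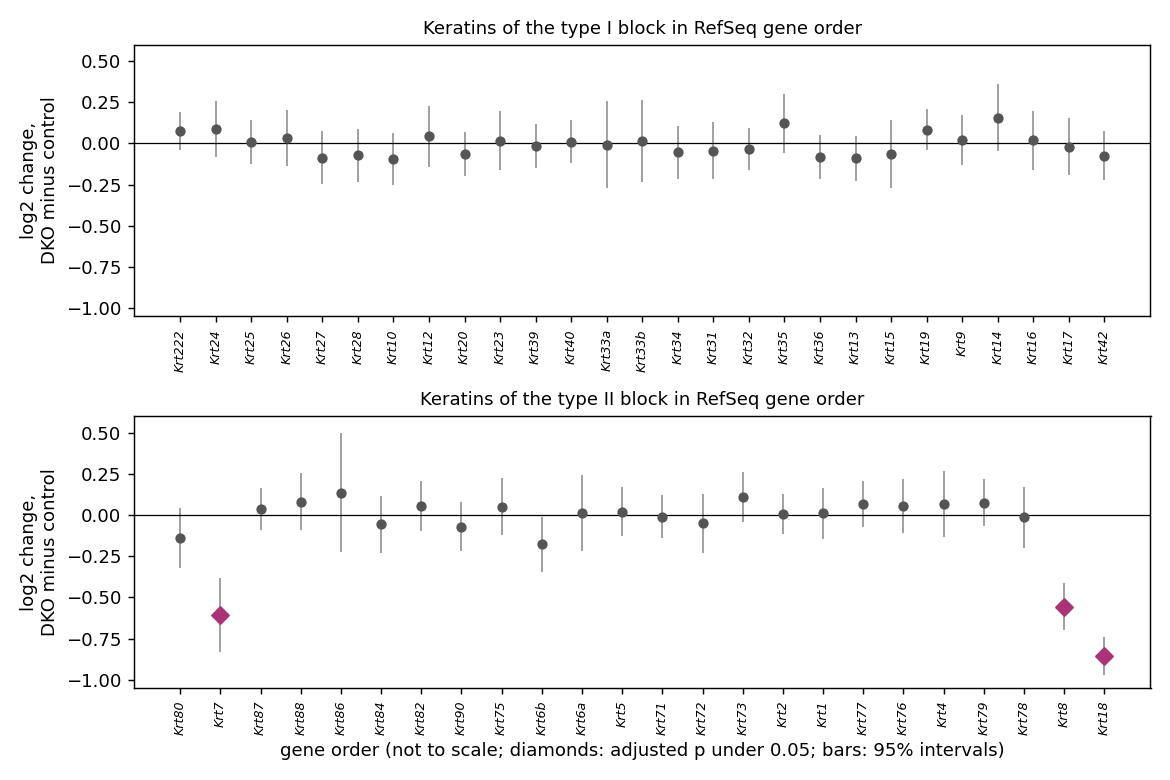
Log2 change (DKO minus control, with 95% interval) of the keratins in the order in which RefSeq lists them in each block; the spacing is not to scale, and diamonds mark an adjusted p under 0.05. In the type II block Krt7 stands at -0.61 near one end and Krt8 and Krt18 at -0.56 and -0.86 at the other. Between them lie 20 uncalled keratins (2.41% of all genes were called).

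Other genes of epithelium, though not all of those listed, fell alongside the simple keratins. Of 19 measured lung epithelium markers, 8 were called lower and 0 higher, against 1.38% and 1.03% of all genes, with a median of -0.30. All DKO values lay below all controls for 14 of the 19, against 10.4% of all genes. This list and those below were chosen with earlier results of these data known, so their counts are no independent test. The largest falls were in the membrane protease Prss8 (-0.91, SE 0.06), the trafficking gene Rab25 (-0.89, SE 0.06), the morphogen Shh (-0.59, SE 0.08) and the tight junction gene Cldn6 (-0.56, SE 0.09), beside -0.86, -0.61 and -0.56 for Krt18, Krt7 and Krt8. The epithelial adhesion gene Epcam stood at -0.50 (adjusted p = 0.00428). E-cadherin, Cdh1 (-0.22, SE 0.07), and the lung determinant Nkx2-1 (-0.19, SE 0.07) did not pass (adjusted p = 0.168 and 0.299). Nkx2-1 was 10.53, 10.60 and 10.53 in the controls and 10.20, 10.44 and 10.44 in the DKO arrays, and for both Nkx2-1 and Cdh1 every DKO array lay below every control. In all, 11 of the 19 were not called. Among these Cldn7 (-0.07, SE 0.07), St14 (-0.06, SE 0.07), Ap1m2 (-0.004, SE 0.07) and Crb3 (0.05, SE 0.10) changed little, and their groups overlapped. The mean log2 level over the 19 markers was 9.10 to 9.16 in the controls and 8.65 to 8.85 in the DKO arrays, with no overlap. That over the 5 simple keratins was 9.15 to 9.25 and 8.76 to 8.86. The keratin mean includes the 3 called genes, while Krt19 and Krt20 each overlapped between the groups. The part of a lower epithelial share in the fall of the 3 keratins was not tested. Without control 2 the marker count of 8 became 5, and the calls of Shh (adjusted p = 0.0532) and Cldn6 (0.0698) were among those lost, that of Cldn6 also without control 3 (0.0593).

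Mesothelium also makes simple keratins, and a few of its markers were called higher. Of 10 mesothelial markers, 3 were called higher and 0 lower, against 1.03% and 1.38% of all genes, and 7 were not called. The 3 were the calretinin gene Calb2 (1.28, SE 0.22, and 0.81 with array weights), the uroplakin gene Upk1b (0.47, SE 0.07) and Gpm6a (0.42, SE 0.08). Calb2 varied widely between the DKO arrays, at 8.78, 8.46 and 7.67, with an SD of 0.57 against 0.04 in the controls. The median of the list was 0.12, and the transcription factor Wt1 stood at -0.02 (SE 0.06). The mean log2 level over the list was 8.87 to 8.91 in the controls and 9.13 to 9.20 in the DKO arrays, and this mean includes the large change of Calb2. Of the 10 changes 8 lay above 0 and 2 below. Among those not called, Msln stood at 0.05 (SE 0.07), Bnc1 at 0.05 (SE 0.06) and Tbx18 at -0.10 (SE 0.11). The part of mesothelium in the Krt19 values was not tested. The count of 3 became 1 without control 1, 2 or 3, where Calb2 (adjusted p = 0.0820 to 0.0982) and Gpm6a (0.0672 to 0.129) lost their calls, and Gpm6a was lost without DKO 3 too (0.0643). Of 8 basal cell markers, 1 was called, against 2.41% of all genes. It was Snai2, which mesenchyme also expresses (0.28, SE 0.06, higher), and the basal factor Trp63 stood at 0.06 (SE 0.05). Snai2 lost its call without any 1 of the arrays but DKO 2 (adjusted p = 0.0695 to 0.159) and with the replicate block (0.0740). Of 14 mesenchymal markers 2 were called higher and 1 lower, against 1.03% and 1.38% of all genes. Those higher were the growth factor Fgf10 (1.05, SE 0.12) and the homeobox gene Meox2 (0.63, SE 0.05), and Twist2 (-0.28, SE 0.06) was lower. Twist2 lost its call without any 1 of the arrays but DKO 2 (adjusted p = 0.0505 to 0.186) and with the replicate block (0.0869). Of 10 endothelial markers limma called 0, with 2 at an unadjusted p under 0.05, against 12.8% of all genes. All 10 changes lay above 0, with a median of 0.13, and Tek (0.20, SE 0.07) and Cdh5 (0.20, SE 0.07) had the largest values. The mean log2 level over the endothelial list was 9.62 to 9.68 in the controls and 9.70 to 9.87 in the DKO arrays. Over the mesenchymal list it was 10.47 to 10.50 and 10.52 to 10.58, with a median change of -0.04. Tek was called with array weights (adjusted p = 0.0331).

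The partners that anchor keratin filaments mostly did not pass. Of 15 desmosome and plakin genes, 1 was called higher and 0 lower, against 1.03% and 1.38% of all genes, with a median of -0.06. The 1 was Perp, a membrane protein gene of the desmosome (0.44, SE 0.09, adjusted p = 0.0346). An unadjusted p under 0.05 was reached by 6 of the 15, against 12.8% of all genes. All DKO values lay below all controls for 4 and above them for 2, against 10.4% and 8.36% of all genes. Desmoplakin, Dsp, which ties keratin to the desmosome, stood at -0.24 (SE 0.08, adjusted p = 0.197), desmoglein Dsg2 at -0.22 (SE 0.06, adjusted p = 0.112) and the linker plectin, Plec, at 0.18 (SE 0.06, adjusted p = 0.201). Of 6 hemidesmosome genes, 1 was called lower, against 1.38% of all genes, and 0 higher. The 1 was the laminin chain gene Lamb3 (-0.40, SE 0.06, adjusted p = 0.00917), and the integrin gene Itgb4 stood at 0.00 (SE 0.05). Perp lost its call without control 1, 2 or 3 or DKO 1 (adjusted p = 0.0671 to 0.157), and Lamb3 without control 1 or 2 (0.0552 and 0.0564).

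Of 16 other intermediate filament genes, 1 was called, against 2.41% of all genes. It was the muscle gene desmin, Des (0.32, SE 0.06, higher, adjusted p = 0.0353). Vimentin, Vim, the filament gene of mesenchyme, stood at -0.05 (SE 0.05), and the median was -0.02. Des lost its call without any 1 of the arrays but DKO 2 (adjusted p = 0.0607 to 0.158). Of 9 cornified envelope genes, 1 was called higher and 0 lower, against 1.03% and 1.38% of all genes, with a median of 0.07. The 1 was the loricrin gene Lor (0.32, SE 0.05, adjusted p = 0.0133). The call of Lor was lost without control 1, 2 or 3 (adjusted p = 0.0621 to 0.0806).

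Among 16 transcription factors known to regulate epithelial or keratin genes, 3 were called lower and 0 higher, against 1.38% and 1.03% of all genes. These were Foxa1, a forkhead factor of endoderm (-0.69, SE 0.07, adjusted p = 0.00184), the grainyhead factor Grhl2 (-0.61, SE 0.07, adjusted p = 0.00211) and Foxa2 (-0.32, SE 0.06, adjusted p = 0.0274). All DKO values lay below all controls for these 3 and for 6 of the 16 in all, against 10.4% of all genes. Foxa1 was 10.54, 10.59 and 10.59 in the controls and 9.72, 9.99 and 9.93 in the DKO arrays, and Grhl2 was 8.32, 8.51 and 8.40 and then 7.73, 7.79 and 7.88. The stratification factor Trp63 and the factors Klf4 (0.01, SE 0.10) and Klf5 (0.12, SE 0.07) were not called, and the list's median was -0.04. Foxa2 lost its call without any 1 of the controls or DKO 1 (adjusted p = 0.0604 to 0.141) and with the replicate block (0.0695).

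**Figure D5:**
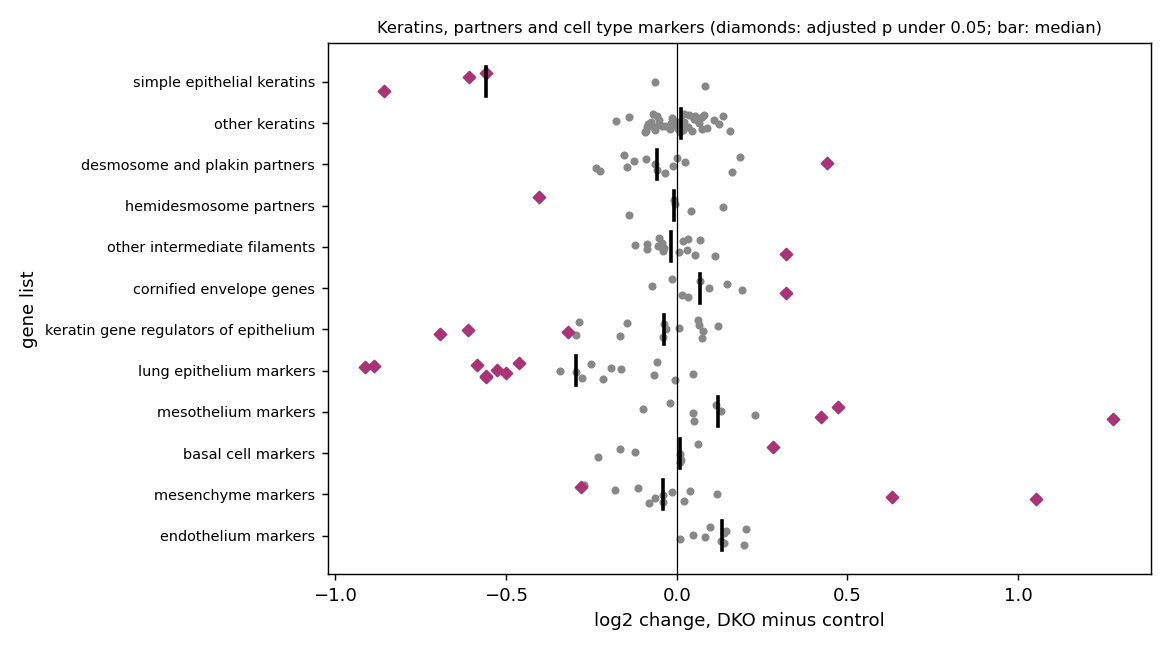
Log2 change (DKO minus control) of every measured gene of each list; diamonds mark an adjusted p under 0.05 and black bars the list's median. The simple keratins (median -0.56) and lung epithelium markers (-0.30) lie mostly below 0. The other keratins centre on 0.01 and the mesothelium and endothelium markers on 0.12 and 0.13.

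Hdac1, which with Hdac2 was targeted for deletion, stood lower in DKO arrays (-0.28, SE 0.05, adjusted p = 0.0193) and Hdac2 stood at -0.04 (SE 0.06, adjusted p = 0.845). Whether their probes lie in the floxed exons was not determined. The Hdac1 call was lost without any 1 of the arrays but DKO 2 (adjusted p = 0.0517 to 0.112) and with the replicate block (0.0507). Arrays correlated at 0.995 to 0.999 over all genes. The count of 481 called genes fell to between 197 and 215 without a control and to 317 without DKO 3, and rose to 811 without DKO 2.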

How the data were processed

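Each of 6 samples was hybridised to an Affymetrix MoGene 1.1 ST array from 100 ng of total RNA, per the labels' protocols. The deposited table held 1 log2 expression value per array for 35556 probes. RMA, oligo and limma are named, without versions, in the submitters' processing notes. RMA makes the distributions of the arrays alike, so a change common to all genes cannot be seen. The log base is not stated in the deposited file, and base 2 was taken from the method and the range of 3.42 to 14.27. The genome build of the probes is not given in the sources used here.

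Probes that the platform annotation assigns to 1 gene (21789) were kept, and for genes with several probes the one with the highest mean over the 6 arrays, leaving 19938 genes. Groups came from the titles. The groups were compared by limma 3.58.1 under R 4.3.3 (lmFit with group as the only term, then eBayes, two-sided) with Benjamini-Hochberg adjustment over all genes and a threshold of 0.05, and the code was tested on simulated data. Intervals are 95% confidence intervals from the same fit. The precision is limited by the number of arrays. Ratios between keratins, chosen after the values were seen, were compared by exact two-sided permutation over arrays.

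The members and lists were chosen with earlier results of these data known. Named were the simple epithelial keratins, called keratins, the 5 largest rises and falls of the others, basal and a few further keratins, Hdac1 and Hdac2, and up to 4 called genes per list, or 2 where none was called. Krt88 was put in the class of unsettled keratins, and members outside the rule, such as Krt1, Krt4, Krt6a, Krt222, Dsp, Dsg2, Plec, Itgb4, Vim, Epcam, Cdh1, Cldn7, St14, Ap1m2, Crb3, Nkx2-1, Wt1, Trp63, Klf4, Klf5, Eif4b and Tns2, named, after values were seen. Krt81, Krt83 and Krt85 were not analysed here, nor were scanner files. Alternatives tried were an intensity trend, array weights, a replicate block, a second quantile normalization, median centring, the mean of a gene's probes, all probes, a filter on the dimmest 30% and leaving out each array.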

Additional observations from a re-analysis of the deposited data

How the results depend on the processing

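The falls of Krt18 and Krt8 kept their direction and their call under every alternative run, with changes of -0.88 to -0.82 and -0.61 to -0.48, and Krt7 (-0.70 to -0.50) did so in all but the fits without control 2 or control 3. The count of called keratins was 3 in the main fit, 4 with array weights and 2 to 3 when an array was left out. The count of called genes was 481, and became 725 with an intensity trend, 2003 with array weights and 197 to 811 when an array was left out, and the list genes called numbered 22, 35 with array weights and 10 to 28 when an array was left out. The median of the simple keratins became -0.14 with Krt23 and Krt80 among them, as those 2 members changed little, and ran from -0.61 to -0.51 when an array was left out. The median of the other keratins ran from -0.049 (without DKO 2) to 0.049 (without DKO 1), and was -0.02 with array weights. Uncalled keratins near 0 changed sign when an array was left out: Krt5 ran from -0.046 to 0.059, Krt15 from -0.16 to 0.022, Krt17 from -0.097 to 0.035, Krt23 from -0.033 to 0.10 and Krt86 from -0.030 to 0.24. With the replicate number as a block, the 3 keratins were called (adjusted p = 0.00159 for Krt18, 0.00846 for Krt8 and 0.00410 for Krt7) and 406 genes in all. The numbers were not taken as pairs in the main fit, because no label says that a number marks a litter or day. The deviations of same-numbered arrays correlated at -0.06, 0.05 and 0.16. Controls 2 and 3 correlated best with the DKO array of their own number, and control 1 with DKO 2. With 3 arrays per group these correlations cannot tell whether the arrays were paired. Beyond what is stated here, the causes of these shifts were not tested. Dim signals limit what can be said of 46 of the 52 keratins.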

Other observations

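Genes whose names resemble keratins but which encode other proteins were also measured. The keratin-associated proteins are matrix proteins of the hair shaft, and many of their genes lie within the type I keratin block. Of 44 measured Krtap genes, limma called 0, against 2.41% of all genes, and the median was 0.02. An unadjusted p under 0.05 was reached by 1 (Krtap21-1, -0.14, SE 0.06), against 12.8% of all genes. Their mean log2 level was 6.50 to 6.54 in the controls and 6.45, 6.68 and 6.49 in DKO 1 to 3, so DKO 2 was the highest here too.

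Krtcap3, an epithelial membrane protein gene, was called lower. Its log2 level was 8.75, 8.92 and 8.81 in the controls and 8.50, 8.59 and 8.52 in the DKO arrays, with no overlap (-0.29, SE 0.06, adjusted p = 0.0439). Krtcap2, a subunit gene of the oligosaccharyltransferase complex, stood at -0.01 (SE 0.06, adjusted p = 0.984). Both were chosen after their values were seen.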
